A study of Mus musculus with 6 samples.

Results

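The complement system was followed through 8 genes of 23494 measured in this series: the 3 chains of C1q (C1qa, C1qb and C1qc), the components C3 and C4b, the receptors C3ar1 and C5ar1, and the inhibitor Serping1. The members were listed by name, as components, receptors and regulators of complement, by a rule that uses no measured value, with earlier results of these data known. Their unique molecular identifier (UMI) counts were summed over the cells of each deposited cluster and each library, and are given as CPM, the counts scaled to all UMIs of those cells. A UMI marks 1 captured transcript by its 3′ end, so levels are not divided by transcript length. All 8 were in the tables of both mouse lines, and 7 of the 8 in the table of the naïve cells alone, where C3 was not analysed.

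The cells were tdT+/DAPI- live cells sorted from the cerebral cortex of NG2-CreERT2/Ai14-flx and Tbx18-CreERT2/Ai14-flx mice aged 3 to 4 months, in which tamoxifen switches on the red reporter tdT (Ai14) in cells that use the NG2 or the Tbx18 promoter and in all their later progeny. All mice carried the Cre and the reporter and all received tamoxifen, 7 days before injury in the injured groups. Each line had a naïve group with no injury, a physical injury group (saline injected into the cortex) and an ischemic injury group (ET-1/L-NAME, a vasoconstrictor with an inhibitor of nitric oxide synthesis), the injured groups taken 3 days after injection. NG2 also marks oligodendrocyte precursors and Tbx18 also marks smooth muscle, so the sort is not limited to pericytes, and NG2-tdT+ and Tbx18-tdT+ denote cells by their reporter only. Cells of several animals were pooled, and there was 1 library per condition: no test between conditions was possible, and no p-value is given. The 6 libraries held 17033 cells, with 3153996 to 54276245 UMIs per library and medians of 2806 to 9232 UMIs per cell, and no pair of libraries shared more than 0.437% of the smaller library's cell barcodes. Intervals in brackets are exact 95% intervals for counting error only and do not cover variation between animals or libraries.

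Complement is a cascade of plasma and tissue proteins that tags cells and debris for removal. C1q starts the classical pathway, in which C4 and then C3 are cleaved and bound to the target, and the small fragments released from C3 and C5 act on the receptors encoded by C3ar1 and C5ar1. In brain, microglia and the macrophages at its borders are the main source of C1q, C4b can be made by glia, and Serping1 encodes the C1 inhibitor, a serpin that blocks the proteases attached to C1q.

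The deposited clusters and their published names were used. In the NG2 line they were activated pericytes (cluster 0), canonical pericytes (1, 2 and 10), smooth muscle cells (3), mature oligodendrocytes (4), endothelial cells (5), oligodendrocyte precursor cells (OPCs, 6), radial glial precursors (RGPs, 7), mesenchymal-like pericytes (8) and microglia (9). In the Tbx18 line they were endothelial cells (cluster 0), smooth muscle cells (1), canonical pericytes (2), microglia (3), vascular-genic pericytes (4), fibroblasts (5) and glial precursors (6). The clusters were formed on expression, and the C1q genes were among the markers that named the NG2 microglia, so levels across clusters are a description and no test. The name of cluster 9 of the NG2 line fitted its markers: all 8 microglia genes (Tmem119, P2ry12 and others) were detected in each of its libraries, with a summed level of 9935, 8041 and 6613 CPM in naïve, physical and ischemic cells. The name of cluster 3 of the Tbx18 line was less clear, and it is called by its number here. Its leading genes by fold held monocyte and dendritic cell genes (Ccr2, Cd209a) and none of the microglia list, and its microglia markers summed to 881 CPM after physical and 809 CPM after ischemic injury against 1881 and 1553 CPM for border macrophage markers. Its 76 naïve cells had 21598 CPM of pericyte markers and 346 CPM of microglia markers with 5 of 8 at 0 (Tmem119, Cx3cr1, Gpr34, Siglech and Olfml3), so in naïve cells the label was contradicted, and results for this cluster rest on the physical and ischemic libraries.

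The 3 C1q genes lie side by side in 18.7 kb of chromosome 4, on the minus strand: C1qb at chr4:136880129-136886187, C1qc at chr4:136889804-136893065 and C1qa at chr4:136895917-136898803 (GENCODE M21, GRCm38). The other members are on the minus strand of other chromosomes: C3 at chr17:57203970-57228136, C4b at chr17:34728380-34743882, C3ar1 at chr6:122847138-122856161, C5ar1 at chr7:16246743-16259540 and Serping1 at chr2:84765387-84775444. Promoter windows of RefSeq (GRCm38.p6) were matched for 5 of the 8. Printed here are the bases of the window ahead of the gene for 2 C1q chains, which move together in what follows, and for C3ar1 and C3, a receptor found in the same cells and a component that was nearly undetected there. The runs read 5′ to 3′ along the gene's strand, at chr4:136886201-136886450 for C1qb, chr4:136893066-136893164 for C1qc, chr6:122856162-122856407 for C3ar1 and chr17:57228137-57228386 for C3. Capitals mark AGGAAGT, the core bound by ETS factors such as PU.1, a factor of myeloid cells, where it is present on either strand (it reads ACTTCCT on the opposite one):
C1qb: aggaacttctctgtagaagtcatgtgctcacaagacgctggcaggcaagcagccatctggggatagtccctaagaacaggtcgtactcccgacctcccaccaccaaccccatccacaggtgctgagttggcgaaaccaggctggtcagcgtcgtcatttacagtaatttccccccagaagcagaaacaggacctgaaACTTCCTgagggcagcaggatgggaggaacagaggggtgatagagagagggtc
C1qc: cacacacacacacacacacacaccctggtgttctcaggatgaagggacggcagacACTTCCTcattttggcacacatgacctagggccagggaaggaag
C3ar1: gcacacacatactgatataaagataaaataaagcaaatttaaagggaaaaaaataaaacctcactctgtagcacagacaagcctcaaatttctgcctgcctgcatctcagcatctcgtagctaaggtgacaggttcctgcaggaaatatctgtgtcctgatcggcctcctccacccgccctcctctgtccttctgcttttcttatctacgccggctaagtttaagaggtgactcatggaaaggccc
C3: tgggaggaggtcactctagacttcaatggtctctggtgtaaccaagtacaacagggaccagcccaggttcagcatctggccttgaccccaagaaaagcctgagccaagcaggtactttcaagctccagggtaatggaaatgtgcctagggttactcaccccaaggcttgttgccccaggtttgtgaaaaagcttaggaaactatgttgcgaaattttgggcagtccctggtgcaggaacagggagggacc

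The core stood 53 bases ahead of the RefSeq start of C1qb and 195 bases ahead of that of C1qc, and in C1qc it was part of the longer letters GAGGAAGT. The window of C5ar1 held it at 72 and 190 bases ahead of the RefSeq start. Both places lie inside the C5ar1 span given above and not ahead of the gene, and are not printed. The RefSeq start of C1qc also lies inside its span, so the distance to the gene's end there is shorter. The windows of C3ar1 and C3 held none. Of 32851 windows of 250 bases over 27025 genes, 7.69% held AGGAAGT and 2.44% held GAGGAAGT on either strand. The interferon-type letters TTCNNNGAA were in 7.02% of windows and in none of the 5 members. The motifs were picked after the sequences had been seen, and a match of letters says nothing on whether a factor binds there.

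**Figure D1:**
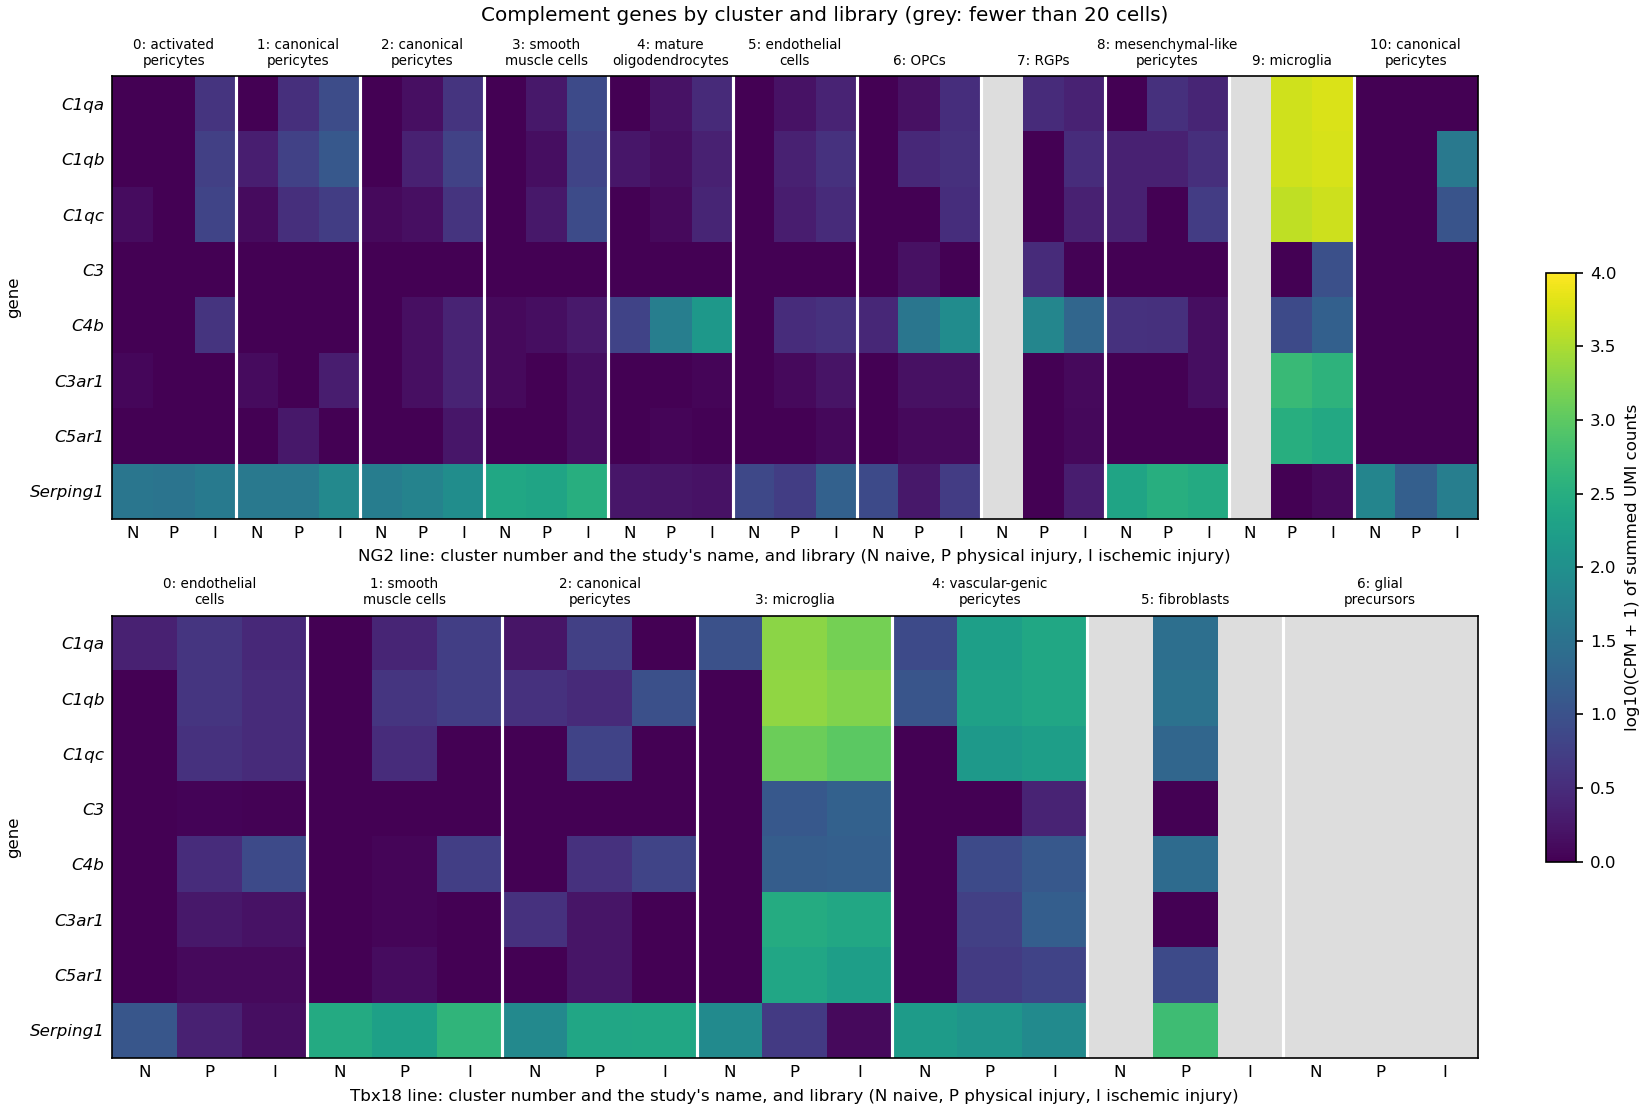
Level of each of the 8 complement genes (rows) in every cluster and library of the NG2 and Tbx18 lines (columns), coloured by log10(CPM + 1) with 1 colour scale for both lines, grey where a group has fewer than 20 cells. The C1q chains, C3ar1 and C5ar1 are high in cluster 9 of the NG2 line and in cluster 3 of the Tbx18 line after injury, C4b in the glial clusters 4, 6 and 7 of the NG2 line, and Serping1 in mural and fibroblast clusters.

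C1q transcripts had the highest levels of the members, and in the NG2 line nearly all of them came from a small number of cells. In cluster 9 of the NG2 line, C1qa stood at 3732 CPM in 18 naïve cells, 5138 CPM in 36 cells after physical injury and 6017 CPM in 164 cells after ischemic injury. C1qb stood at 3585, 5098 and 5754 CPM in the same order. C1qc, the third chain, stood at 2848, 4143 and 5042 CPM. All 3 chains were thus lowest in the naïve cells and highest after ischemic injury. With fewer than 20 naïve cells no ratio to naïve was formed. The ischemic level was 1.17 times the physical one for C1qa (1.13 to 1.22), 1.13 times for C1qb (1.09 to 1.17) and 1.22 times for C1qc (1.17 to 1.27).

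The receptors had another order in the same cells. C3ar1, the receptor for the C3 fragment, stood at 382 CPM in naïve, 504 CPM in physical and 389 CPM in ischemic cells of cluster 9. C5ar1, the receptor for the C5 fragment, stood at 251, 325 and 256 CPM. Both were highest after physical injury, and the ischemic to physical ratio was 0.771 for C3ar1 (0.679 to 0.878) and 0.788 for C5ar1 (0.673 to 0.927). Under TMM scaling of cluster totals these 2 ratios became 1.02 and 1.05, and that of C1qa 1.56, so the direction for the receptors held only with scaling to total UMIs. In this comparison 0 of the 5 members with at least 50 CPM were 2-fold higher after ischemic injury, against 3.13% of all 3708 genes at that level.

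Nearly every cell of cluster 9 held C1q. A UMI of C1qa was found in 88.9% of naïve, 88.9% of physical and 92.7% of ischemic cells, and in 87.5%, 85.7% and 92.9% after each cell was thinned to 1000 UMIs. UMIs of all 3 chains were present in 16 of 18, 32 of 36 and 152 of 164 cells. Canonical pericytes of cluster 1, which should lack the gene, had a C1qa UMI in 2.27% of ischemic cells at a median of 2984 UMIs, against a median of 19742 UMIs in cluster 9. Deeper clusters held C1q in more cells than cluster 1 did. No chain was found in 87.0% of ischemic cells of cluster 4 (median 29600 UMIs) and 85.4% of those of cluster 7 (37572 UMIs). That share was 95.1% in cluster 1 and 2.44% in cluster 9. In cluster 9 the receptors were mostly found in fewer cells than C1q: C3ar1 in 66.7%, 91.7% and 81.7% and C5ar1 in 61.1%, 77.8% and 76.2% at the cells' own depth, and C3ar1 in 25.0%, 48.6% and 36.4% after thinning.

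**Figure D2:**
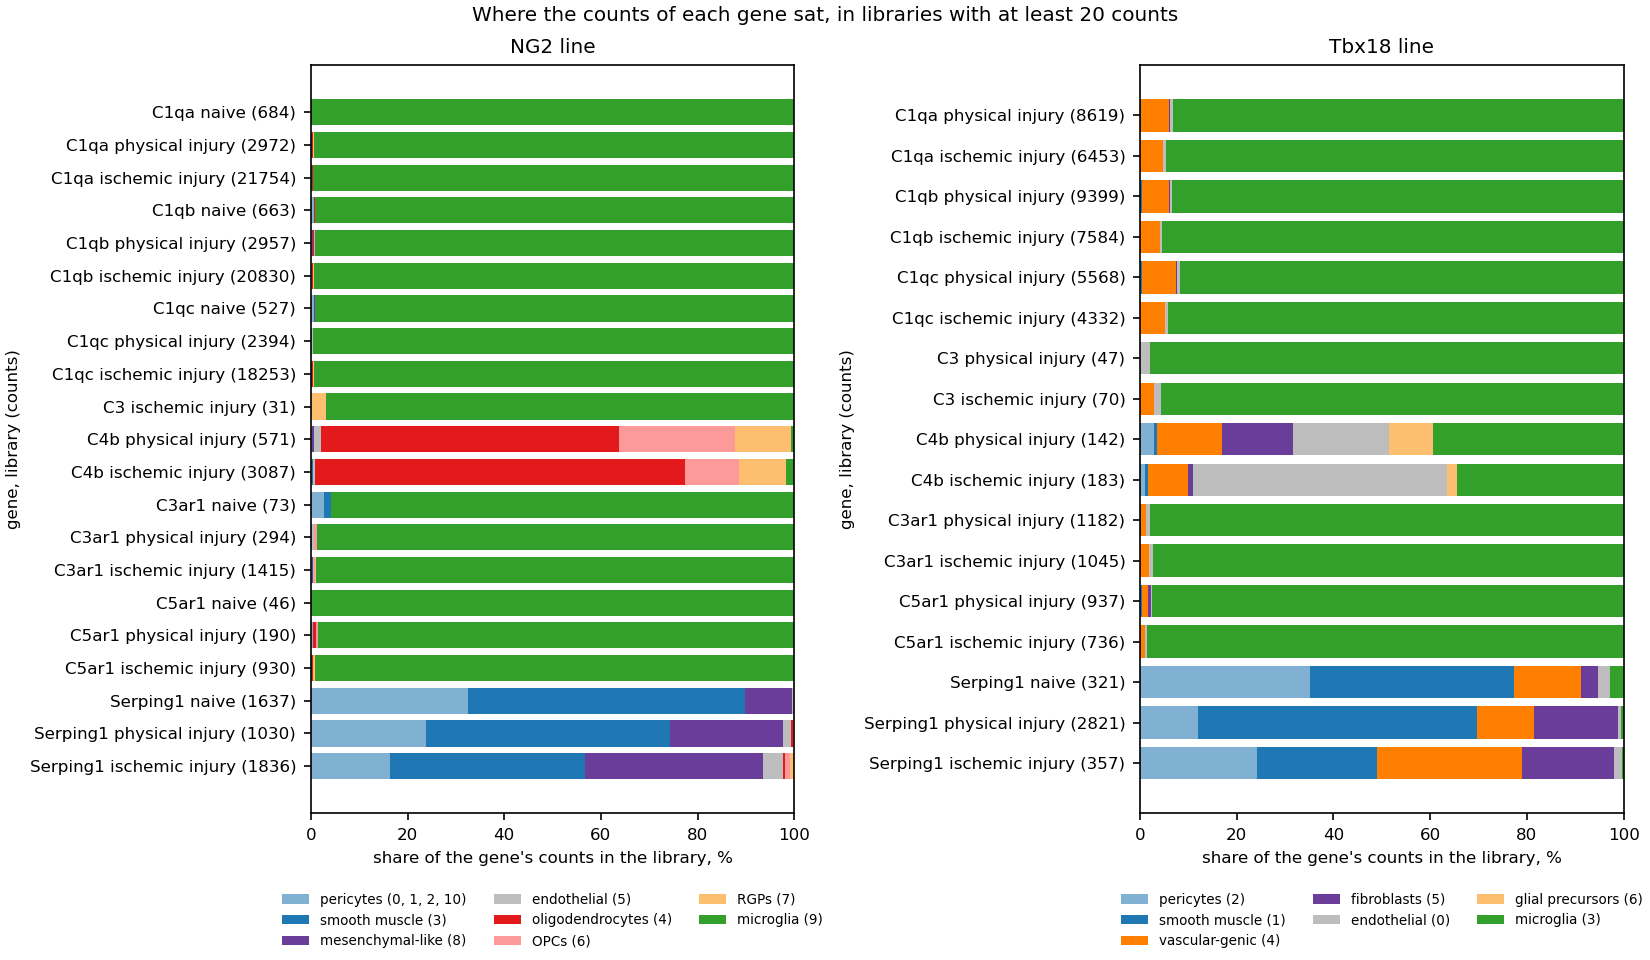
Share of the counts of each gene in a library (percent, x axis) by cell group (colours), with 1 bar for each gene and library with at least 20 counts, given in brackets. The bars for C1qa, C1qb, C1qc, C3ar1 and C5ar1 are filled almost wholly by the study's microglia clusters in the NG2 line and in the injured Tbx18 libraries. In the NG2 line those for C4b are filled mostly by glia and those for Serping1 by mural cells. In the Tbx18 line clusters 1 and 2 hold 77.3%, 69.8% and 49.0% of naïve, physical and ischemic Serping1 counts. Clusters 1, 2, 4 and 5 together hold 94.7%, 98.9% and 98.0%.

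Over whole NG2 libraries the C1q level followed the number of these cells. C1qa stood at 33.8 CPM of all UMIs in the naïve library, 120 CPM after physical and 401 CPM after ischemic injury, so that the ischemic library was 11.9 times the naïve one (11 to 12.8) and 3.33 times the physical one. Cluster 9 held 100%, 99.4% and 99.5% of these C1qa counts, and 18 of 4306, 36 of 2563 and 164 of 3586 cells. More cells of a type and more RNA per cell cannot be told apart in such library-wide values. Library-wide C3ar1 stood at 3.60, 11.9 and 26.1 CPM and C5ar1 at 2.27, 7.70 and 17.1 CPM, again mostly from cluster 9 (95.9% to 100% of their counts).

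A low C1q level was found outside the myeloid cluster in the ischemic library. In clusters 0, 1 and 2 together (3243 naïve, 1106 physical and 1085 ischemic pericytes) C1qa had 0, 4 and 18 counts, and C1qb had 4, 9 and 29 counts, a level of 0.312, 1.68 and 6.25 CPM. The ischemic to naïve ratio for C1qb was 20.01 (7.03 to 78.3). After thinning, 0.292% of ischemic pericytes held a C1qa UMI against 1.66% before. Outside cluster 9 the 356 ischemic C1q counts were 30.6% C1qa (25.9 to 35.7), 37.1% C1qb and 32.3% C1qc, against 35.8%, 34.2% and 29.98% within the cluster. The library with more C1q counts outside the cluster was also the one with the most cells in it, and the part of free RNA was not tested. No C1q chain reached 50 CPM in these pericytes.

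In the Tbx18 line the naïve library held almost no C1q, with 5 C1qa counts in 686 cells (1.59 CPM), 7 C1qb counts and 0 C1qc counts. Library-wide C1qa stood at 285 CPM after physical and 318 CPM after ischemic injury, C1qb at 311 and 373 CPM, and C1qc at 184 and 213 CPM. Cluster 3 held 93.2% and 94.7% of the C1qa counts of the injured libraries, and clusters 3 and 4 together 99.0% and 99.6%. C3ar1 stood at 1.27, 39.1 and 51.5 CPM library-wide in naïve, physical and ischemic cells. C5ar1 had 0 counts in the naïve library and stood at 31.03 and 36.2 CPM in the injured ones.

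Within cluster 3 of the Tbx18 line, C1q was lower after ischemic than after physical injury, the opposite order to cluster 9 of the NG2 line. C1qa stood at 2017 CPM in 318 physical and 1479 CPM in 265 ischemic cells, a ratio of 0.734 (0.709 to 0.758). C1qb stood at 2202 and 1753 CPM, a ratio of 0.796 (0.772 to 0.821), and C1qc at 1281 and 987 CPM, a ratio of 0.771 (0.739 to 0.803). C3ar1 was at 290 and 246 CPM (ratio 0.849, 0.779 to 0.924), and C5ar1 at 229 and 175 CPM (ratio 0.766, 0.694 to 0.845). None of the 5 members with at least 50 CPM was 2-fold higher after ischemic injury, against 0.627% of all 3349 genes at that level. The 76 naïve cells held 1 C1qa count and 0 of C1qb, C1qc, C3ar1, C5ar1, C3 and C4b.

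Fewer cells of this cluster held C1q than in the NG2 line. C1qa was found in 67.6% of physical and 52.8% of ischemic cells (60.4% and 43.3% after thinning), against 2.18% and 1.61% in endothelial cells of cluster 0, whose median depths were 6702 and 8981 UMIs against 12086 and 15595 UMIs in cluster 3. All 3 chains were found in 204 of 318 and 136 of 265 cells, and none in 76 (23.9%) and 105 (39.6%).

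The cells of both clusters were then split by the marker list that held most of their UMIs, a split that gives a range rather than a type. In cluster 9 of the NG2 line 202 cells (92.7%) fell to the microglia list, 12 of them near the cut, with 5942 CPM C1qa, 5662 CPM C1qb and 4932 CPM C1qc over the 3 libraries. In cluster 3 of the Tbx18 line 130 cells (19.7%, 39 near the cut) fell to microglia, 237 (36.0%, 25 near) to border macrophages, 85 (12.9%, 18 near) to monocytes, 90 (13.7%, 7 near) to dendritic cells, 38 (5.77%) to T and NK cells and 7 to neutrophils, and 72 (10.9%) were unassigned, 52 of them naïve. C1qa in this cluster stood at 3074 CPM in the microglia range, 2607 CPM in the border macrophage range, 742 CPM in the monocyte range and 21.1 CPM in the dendritic range, and had 0 counts in T and NK cells. C1qb had the same order, with 3136, 2990, 997 and 51.2 CPM. C1q was thus high in both the microglia and the border macrophage range, and its level in the Tbx18 microglia range was below that in the NG2 one. The 39 cells near the cut and the different clustering of the lines stand beside that difference, and their part in it was not tested.

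C3ar1 had the order of C1q over these ranges, and C5ar1 did not. C3ar1 stood at 422 CPM in the microglia range of cluster 3, 403 CPM in border macrophages, 148 CPM in monocytes and 19.2 CPM in dendritic cells. C5ar1 stood at 236, 319, 155 and 1.28 CPM, with 553 CPM from 18 counts in the 7 cells of the neutrophil range. In the NG2 microglia range C3ar1 was at 406 CPM and C5ar1 at 269 CPM, close to the Tbx18 levels.

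**Figure D3:**
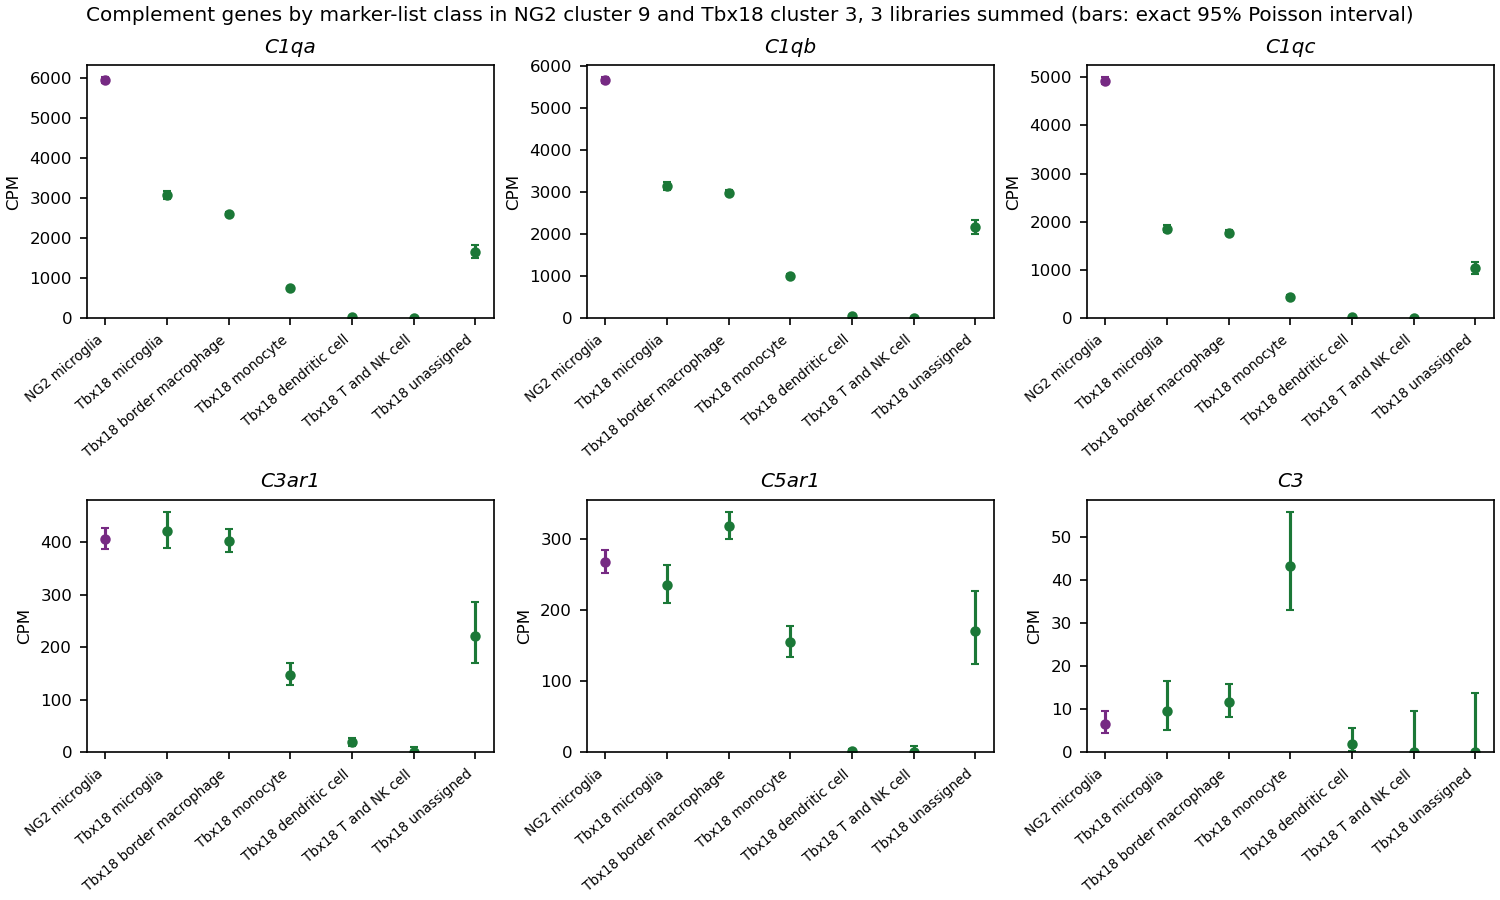
Levels (CPM, y axis, 1 panel per gene) of the C1q chains, C3ar1, C5ar1 and C3 in the cells of cluster 9 of the NG2 line and cluster 3 of the Tbx18 line, all libraries summed, split by the marker list with most UMIs, with exact 95% Poisson intervals as bars. C1qa goes from 5942 CPM in NG2 microglia to 3074 CPM in the microglia and 21.1 CPM in the dendritic range of the Tbx18 line, and C3 is highest in monocytes, at 43.3 CPM.

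The makeup of cluster 3 differed between the injured libraries, and the levels differed within its ranges as well. Border macrophages were 144 cells (45.3%) after physical and 91 cells (34.3%) after ischemic injury, monocytes 38 (11.9%) and 47 (17.7%), dendritic cells 45 (14.2%) and 44 (16.6%), and T and NK cells 14 (4.40%) and 24 (9.06%). The ischemic to physical ratio of C1qa was 0.928 in microglia (0.873 to 0.987), 0.795 in border macrophages (0.761 to 0.831) and 0.713 in monocytes (0.629 to 0.808). For C1qb it was 0.855, 0.925 and 0.773, and for C1qc 0.935, 0.886 and 0.631. Every C1q ratio was below 1 in these 3 ranges, and 1 of the 9 intervals, that of C1qc in microglia (0.864 to 1.01), reached past 1. C3ar1 was lower after ischemic injury in microglia (0.824, 0.696 to 0.976) and not in border macrophages (1.05, 0.944 to 1.18), and C5ar1 was at 0.605 in microglia (0.478 to 0.762). C1qb in the dendritic range went the other way, from 19.9 to 76.9 CPM.

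Cluster 4 of the Tbx18 line, named vascular-genic pericytes, also held C1q after injury. The name was not borne out in its injured cells. Pericyte markers summed to 146 CPM in physical and 27.9 CPM in ischemic cells with no C1q chain, and to 96.8 and 15.7 CPM in those with all 3. Over all libraries its leading genes by fold were Prg4, Slc47a1 and Ttr. Its ratios to naïve are thus not those of 1 pericyte type. C1qa had 2 counts in 157 naïve cells (6.87 CPM), and stood at 182 CPM in 349 physical and 240 CPM in 143 ischemic cells, 26.5 times (7.30 to 219) and 34.9 times (9.58 to 289) the naïve level. C1qb stood at 10.3, 194 and 233 CPM and C1qc at 0, 140 and 171 CPM. These counts sat in few cells: 8 of 349 physical and 4 of 143 ischemic cells held 50% of the C1qa counts. In the 38 physical and 16 ischemic cells with all 3 chains, whose median depths were 2335 and 3944 UMIs, border macrophage markers summed to 4386 and 5172 CPM against 11 and 7.86 CPM in the 283 and 119 cells with no chain, and microglia markers to 1134 and 1912 CPM against 205 and 196 CPM. Smooth muscle markers summed to 5430 and 15.7 CPM in the cells with all chains against 4970 and 5854 CPM in those with none, and endothelial markers to 1155 and 141 CPM against 474 and 453 CPM. The physical cells with all chains thus held markers of several cell types. C3ar1 was at 76.1 and 219 CPM in the cells with all chains and 0.877 and 4.37 CPM in those with none. Without the cells that held a UMI of a general myeloid gene (Tyrobp, Fcer1g, Csf1r, Cx3cr1, Ctss or Laptm5), C1qa in cluster 4 was at 3.05 CPM after physical and 0.984 CPM after ischemic injury, and the ratios to naïve became 0.427 and 0.138. Cluster 5, the fibroblasts, had 27.7 CPM C1qa after physical injury, 23 of its 24 counts in 1 cell.

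The ratio between the 3 C1q chains differed between the lines. C1qc took 28.0%, 28.8% and 29.98% of the C1q counts in naïve, physical and ischemic cells of cluster 9 of the NG2 line. In cluster 3 of the Tbx18 line it took 23.3% (22.7 to 23.9) after physical and 23.4% (22.8 to 24.0) after ischemic injury, and C1qb took 40.04% and 41.5% against 34.2% to 35.5% in the NG2 cluster. C1qa took 35.1% to 36.7% in both. Cluster 4 of the Tbx18 line lay between, with 27.2% and 26.6% C1qc. The protein holds the 3 chains in equal number, and the counts are UMIs from transcript 3′ ends, so these are shares of captured molecules and not of protein. C3ar1 counts per 100 C1q counts were 3.76, 3.51 and 2.31 in cluster 9 of the NG2 line and 5.28 and 5.84 in cluster 3 of the Tbx18 line.

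**Figure D4:**
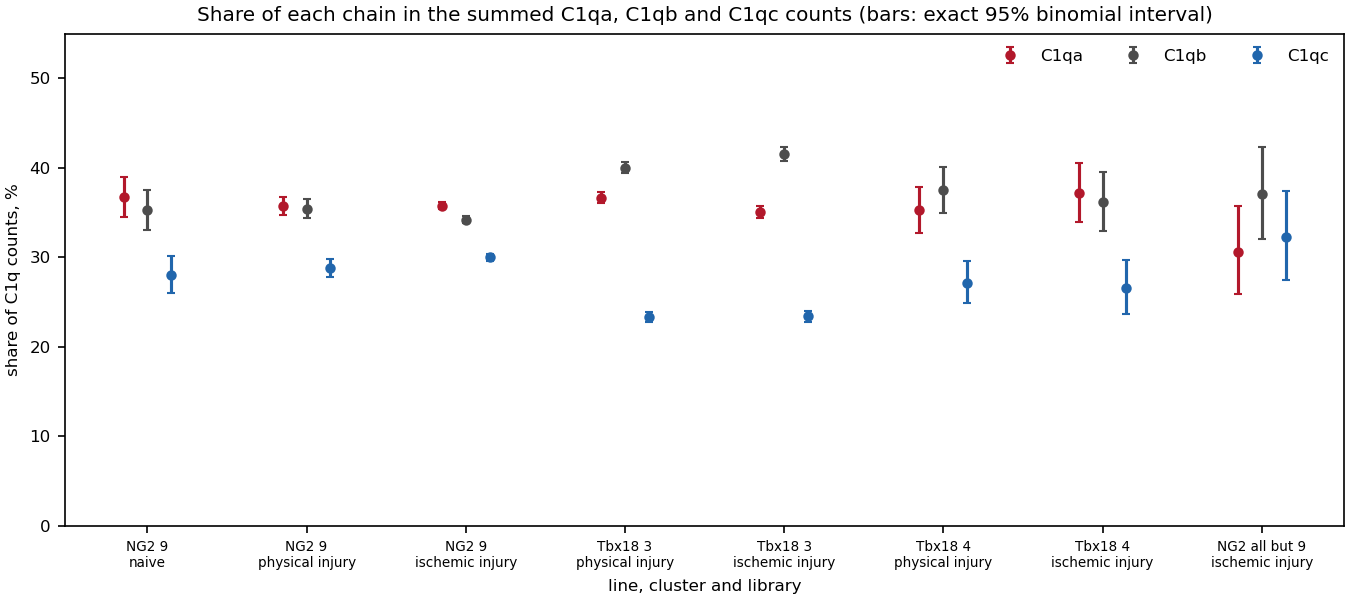
Share of C1qa, C1qb and C1qc (percent of the counts of all 3 chains, y axis) in selected clusters and libraries with at least 20 C1q counts (x axis). All NG2 ischemic cells outside cluster 9 are shown as a single group, and other groups with at least 20 C1q counts are not drawn. Bars are exact 95% binomial intervals for counting error. C1qc lies at 28.0% to 29.98% in cluster 9 of the NG2 line and at 23.3% to 23.4% in cluster 3 of the injured Tbx18 libraries.

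C3, the component on which all pathways of complement converge, was close to undetected. It had 0 counts in the naïve and physical cells of cluster 9 of the NG2 line and 30 counts in ischemic cells, 8.34 CPM (5.63 to 11.9), in 12.8% of cells (0% after thinning). That level was 1.60 times the one that 3 counts would give in the physical cells, which is no lower bound on the ratio. The interval of the physical cells (0 to 6.42 CPM) overlapped the ischemic one. In cluster 3 of the Tbx18 line C3 stood at 11.5 CPM (8.45 to 15.4) after physical and 16.2 CPM (12.6 to 20.6) after ischemic injury, a ratio of 1.40 (0.951 to 2.09) whose interval included 1. Its highest level was in the monocyte range, 43.3 CPM (32.99 to 55.9), at 27.0 CPM after physical and 54.6 CPM after ischemic injury (ratio 2.03, 1.11 to 3.92). Outside these clusters each injured library held 1 to 4 C3 counts, and no other cluster of either line held more than 2. Pericytes, smooth muscle and glia thus held no C3 that could be told from 0 at this depth.

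C4b, the mouse C4 of the classical pathway, lay mostly in oligodendroglial cells of the NG2 line, where it was many times higher after injury than in naïve cells. Library-wide in the NG2 line it had 11 counts in naïve, 571 in physical and 3087 in ischemic cells (0.543, 23.1 and 56.9 CPM), an ischemic to naïve ratio of 105 (58.5 to 210). Clusters 4, 6 and 7 held 97.2% of the physical and 97.4% of the ischemic counts, and 72.7% of the 11 naïve ones. In cluster 4, mature oligodendrocytes, C4b stood at 5.35 CPM in 103 naïve cells (2.15 to 11), 49.98 CPM in 294 physical cells (44.9 to 55.5) and 137 CPM in 592 ischemic cells (131 to 142). The physical level was 9.34 times naïve (4.49 to 23.4), the ischemic level 25.5 times naïve (12.4 to 63.6) and 2.73 times physical (2.44 to 3.07). The intervals of the 3 levels did not overlap. The naïve level rests on 7 counts.

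In cluster 6, OPCs, C4b had 1 count in 100 naïve cells (1.76 CPM) and stood at 36.2 CPM in 301 physical and 86.6 CPM in 294 ischemic cells, a ratio to naïve of 20.6 (3.63 to 819) and 49.3 (8.78 to 1951). The ischemic level was 2.39 times the physical one (1.96 to 2.94), and 3.99 times with the study's cell limits applied again. In cluster 7, the RGPs, the order was turned, with 68.0 CPM in 76 physical and 19.7 CPM in 438 ischemic cells, a ratio of 0.289 (0.221 to 0.383). The median depth of cluster 7 moved with this, from 12792 UMIs in physical to 37572 UMIs in ischemic cells, and counts per cell were 0.868 and 0.680. With cells weighted equally the ratio was 0.570. By the 2-fold rule C4b was 1 of 1 member called in cluster 4, where 2.97% of all 3700 genes with at least 50 CPM were 2-fold higher after ischemic injury than in naïve cells, and 1 of 1 in cluster 6, where 3.64% of 4758 genes were. C4b met the 50 CPM minimum only through the ischemic cells, and both comparisons were added after seeing the data. The calls are thus a description and lend no support. With the study's cell limits applied again 19 of 103 naïve cells remained in cluster 4 and 72 of 100 in cluster 6, with 0 C4b counts, and the ratios to naïve had no value.

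C4b was found in more oligodendroglial cells after injury and not only in a few. In cluster 4 the share of cells with a UMI was 5.83% in naïve, 22.1% in physical and 42.6% in ischemic cells, and 0%, 3.08% and 13.5% after thinning to 1000 UMIs. Median depth moved the same way, with 13252, 23779 and 29600 UMIs. Canonical pericytes of cluster 1 had 0 C4b counts in all 3 libraries, but their ischemic cells were far shallower than those of cluster 4. All mural clusters together held 3, 4 and 12 C4b counts in naïve, physical and ischemic cells (0.171, 0.465 and 1.26 CPM). In ischemic cells of cluster 4, 49 of 592 cells held 50% of the counts and the most in 1 cell was 40. In physical cells 7 of 294 held 50% and the most in 1 cell was also 40, so the physical level rests on fewer cells. By marker list all 103 naïve, 294 physical and 591 of 592 ischemic cells of cluster 4 were oligodendrocytes, and astrocyte markers there summed to 71.0, 45.0 and 27.0 CPM. In the OPC range of cluster 6 C4b was at 0, 34.2 and 76.4 CPM, and 13 ischemic cells of the oligodendrocyte range in that cluster had 270 CPM.

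Elsewhere C4b was low. Endothelial cells of the NG2 line had 0, 2.17 and 2.74 CPM. In the Tbx18 line, which has few oligodendroglial cells, C4b had 0 counts in the naïve library, and the endothelial cells had 2.27 CPM (28 counts) after physical and 6.81 CPM (96 counts) after ischemic injury, a ratio of 3.00 (1.95 to 4.74). Cluster 3 had 14.1 and 15.2 CPM there, the fibroblasts of cluster 5 24.2 CPM (14.99 to 37.01) after physical injury, and the 14 physical cells of the glial precursor cluster 69.3 CPM. The myeloid cells of the NG2 line had 0, 6.96 and 15.6 CPM. C4a is a near-identical copy of C4b, and reads could be split between them or left uncounted; it had 4 counts in the whole NG2 ischemic library and 2 in the Tbx18 physical one. The levels of C4b are uncertain to that extent.

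**Figure D5:**
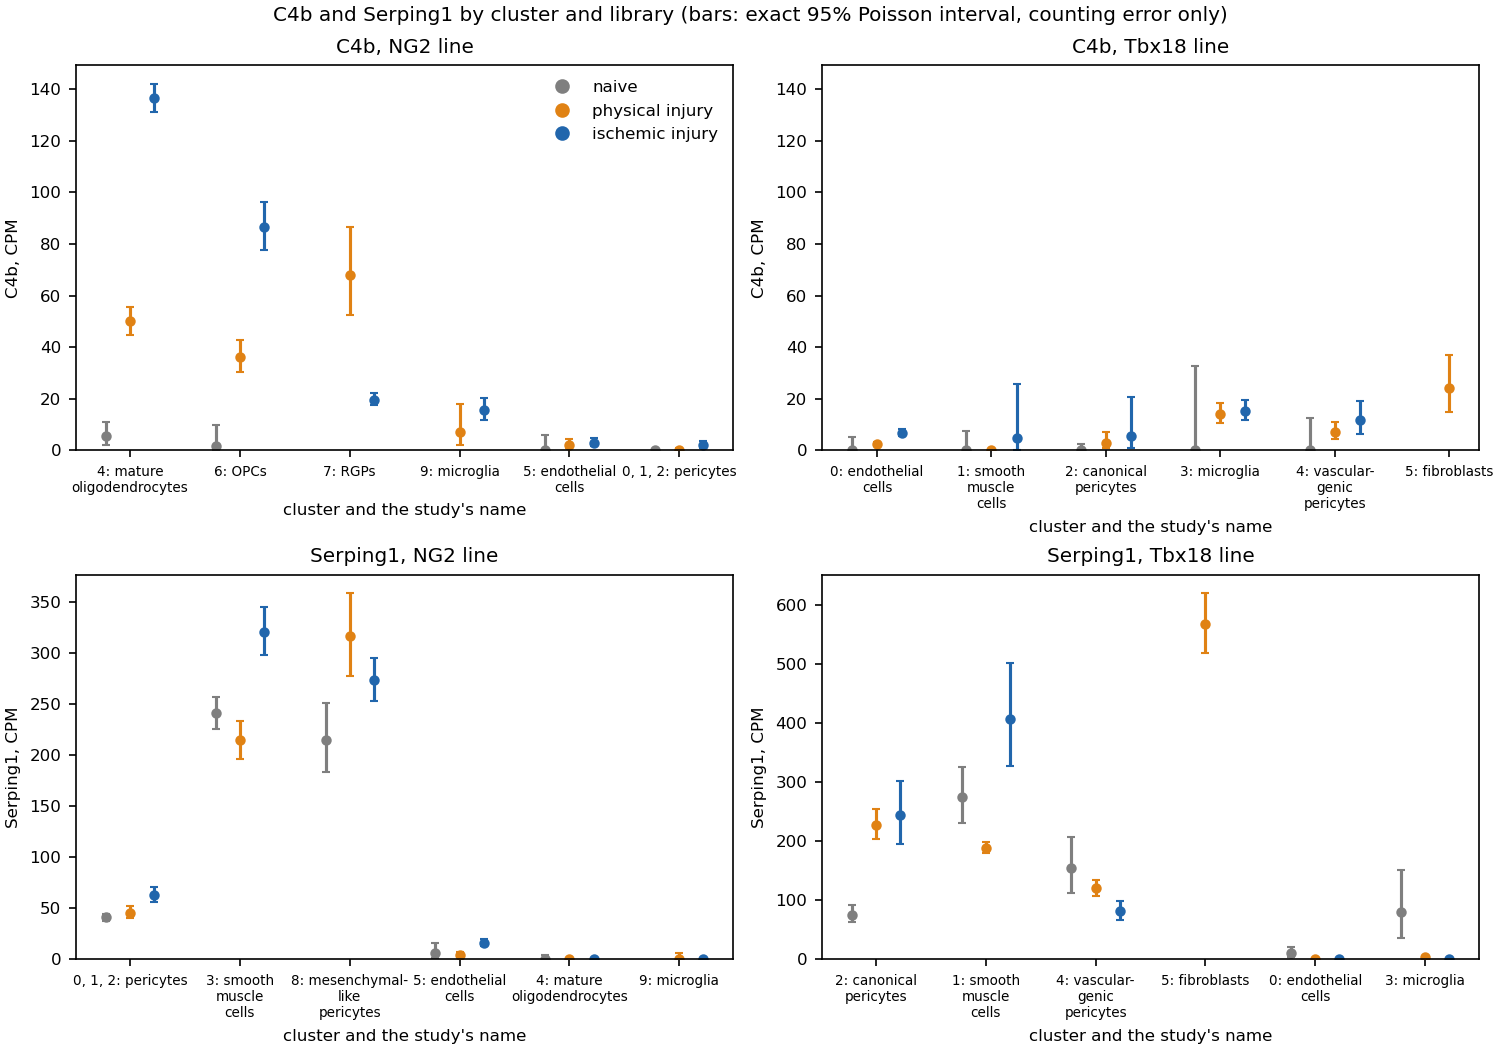
Levels (CPM, y axis) of C4b (top) and Serping1 (bottom) by cluster and library in the NG2 line (left) and the Tbx18 line (right), with exact 95% Poisson intervals as bars. In clusters 4 and 6 of the NG2 line C4b goes from under 6 CPM in naïve to 137 and 86.6 CPM in ischemic cells, and Serping1 is at 214 to 321 CPM in NG2 smooth muscle in all 3 libraries. Groups with fewer than 20 cells are left out.

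Serping1, the C1 inhibitor, was the complement gene of the mural cells themselves, present before injury and low where the other members were high. Mural clusters (0, 1, 2, 3, 8 and 10) held 99.4% of its counts in the naïve, 97.7% in the physical and 93.4% in the ischemic NG2 library. In smooth muscle cells (cluster 3) it stood at 241, 214 and 321 CPM, and in the mesenchymal-like pericytes (cluster 8) at 215, 316 and 274 CPM. In the pericytes of clusters 0, 1 and 2 together it stood at 41.1 CPM in naïve (37.7 to 44.8), 45.7 CPM in physical (40.2 to 51.8) and 63.4 CPM in ischemic cells (56.3 to 71.1). Smooth muscle and cluster 8, in which fibroblast markers stood higher than pericyte markers relative to the other clusters, thus had several times the level of clusters 0, 1 and 2. Oligodendrocytes had under 1 CPM in each library and the myeloid cluster 0, 0 and 0.278 CPM.

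Within these cells the ratios were small. The ischemic to naïve ratio was 1.54 in clusters 0, 1 and 2 together (1.33 to 1.78), 1.33 in smooth muscle (1.21 to 1.47) and 1.27 in cluster 8 (1.07 to 1.52). The physical to naïve ratio was 1.11 in the pericytes (0.952 to 1.30), 0.890 in smooth muscle (0.798 to 0.992) and 1.47 in cluster 8 (1.20 to 1.81). Among the pericytes, the ischemic to naïve ratio was 1.19 in the activated cluster 0 (0.925 to 1.52), 1.91 in cluster 1 (1.41 to 2.56) and 1.85 in cluster 2 (1.46 to 2.33). None of these reached the 2-fold rule, which 0.393% of 4068 genes passed in clusters 0, 1 and 2 (0.193% of 4146 genes for physical over naïve, where no member had 50 CPM), and 0.359% of 3621 genes in smooth muscle. Library-wide, Serping1 went the other way, with 80.8, 41.7 and 33.8 CPM, an ischemic to naïve ratio of 0.419 (0.392 to 0.448), beside a share of smooth muscle cells of 11.7%, 9.44% and 7.72%. All mural clusters together were 3967 of 4306 naïve, 1452 of 2563 physical and 1645 of 3586 ischemic cells. A Serping1 UMI was found in 77.7%, 77.7% and 76.2% of smooth muscle cells (21.2%, 18.4% and 27.8% after thinning) against 0.971%, 0.680% and 1.52% of oligodendrocytes, which were sequenced deeper.

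In the Tbx18 line Serping1 was again highest in fibroblasts and mural cells. The 116 physical cells of the fibroblast cluster had 568 CPM (519 to 621). Smooth muscle cells had 275 CPM in 63 naïve, 189 CPM in 827 physical and 407 CPM in 47 ischemic cells, with ratios to naïve of 0.685 (0.575 to 0.823) and 1.48 (1.12 to 1.95). So in smooth muscle of both lines the physical level lay below and the ischemic level above the naïve one. In canonical pericytes (cluster 2) Serping1 stood at 76.0 CPM in 226 naïve, 228 CPM in 433 physical and 244 CPM in 86 ischemic cells, 3.01 times (2.42 to 3.75) and 3.21 times (2.40 to 4.29) naïve. The share of these cells with a UMI was 26.5%, 31.9% and 38.4%, and 7.17%, 13.4% and 16.0% after thinning. It was the 1 of 1 member past the 2-fold rule in this cluster for physical over naïve, where 6.42% of 4439 genes were. In smooth muscle 0 of 1 member passed, beside 1.63% of 3926 genes.

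Cluster 4 of the Tbx18 line had 154, 120 and 82.2 CPM Serping1 in naïve, physical and ischemic cells, with a physical to naïve ratio of 0.780 (0.570 to 1.09) and an ischemic to naïve ratio of 0.532 (0.372 to 0.771). Its injured cells held few pericyte markers, so these ratios are not those of 1 pericyte type. Under TMM scaling these ratios were 1.12 and 0.877, so the order of the naïve and physical levels depended on the scaling. Endothelial cells were low in both lines. They had 6.27, 4.34 and 16.2 CPM in the NG2 line, where 3 ischemic cells held 50% of the 77 counts, and 10.8, 1.30 and 0.426 CPM in the Tbx18 line. No member reached 50 CPM in the endothelial cells of either line, where 2.14% of 4155 genes (NG2) and 1.48% of 4198 genes (Tbx18) were 2-fold higher after ischemic injury.

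In the table of naïve cells alone, clustered by the authors across both lines, C1q and C4b gave the same picture of the uninjured state with other clusters. Serping1 did so only in part. The naïve cells' member counts were identical in both tables. In cluster 6 of that table nearly all C1q counts came from the NG2 line: its 29 NG2 cells had 2996 CPM C1qb, 2372 CPM C1qc, 321 CPM C3ar1 and 211 CPM C5ar1, and its 246 Tbx18 cells had 2 C1qa, 3 C1qb and 0 C1qc counts and 109 CPM Serping1. Each C1q chain was found in only 15 of these 29 NG2 cells (51.7%), so the cluster was more mixed than cluster 9 of the NG2 line. There 16 of 18 naïve cells held all 3 chains. Serping1 was at 236 CPM in the NG2 and 264 CPM in the Tbx18 cells of cluster 4, where smooth muscle markers led. In cluster 5, where pericyte markers led, it was at 185 and 273 CPM. In cluster 2, where pericyte markers also led, it was at 27.3 and 26.3 CPM. Not every naïve cluster with pericyte markers was thus low in Serping1. C4b was at 5.39 CPM (7 counts) in the NG2 cells of cluster 12, the oligodendrocyte cluster by its markers.

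Of the other listed genes, 38 were in the tables of both lines. The list sizes that follow are not limited to genes found in both. The classical and lectin starters had 3 of 11 genes with at least 50 CPM anywhere: Colec12, a scavenger collectin (2710 CPM in Tbx18 fibroblasts after physical injury), C1s1, a C1 protease (101 CPM in NG2 cluster 8, naïve), and Masp1, a lectin pathway protease (63.1 CPM in NG2 oligodendrocytes after ischemic injury). The alternative pathway had 1 of 2, Cfp or properdin, at 144 CPM after physical and 201 CPM after ischemic injury in cluster 3 of the Tbx18 line (ratio 1.40, 1.25 to 1.56). The terminal pathway, which forms the membrane pore, had 0 of 7. The fluid-phase regulators had 3 of 6 and the membrane regulators 6 of 7. Vtn, a pericyte gene whose protein also blocks the pore, reached 22918 CPM in NG2 cluster 1, and Csmd1, a membrane regulator, reached 4375 CPM in NG2 OPCs. Cd59a reached 216 CPM, Cr1l 171 CPM and Susd4 135 CPM. Among the receptors and their adaptors 7 of 10 passed 50 CPM, with Tyrobp at 2927, Fcer1g at 2697 and Trem2 at 1273 CPM in ischemic and Itgam, the alpha chain of complement receptor 3, at 478 CPM in physical cells of NG2 cluster 9. Tyrobp and Fcer1g are general myeloid genes, so 7 of 10 is not a count of complement receptors alone.

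In the oligodendrocytes of the NG2 line in which C4b was higher, Masp1 went from 7.64 to 63.1 CPM from naïve to ischemic (ratio 8.25, 4.47 to 17.3), and Vtn, a pericyte gene, went from 196 to 67.8 CPM (0.347). All 3 interferon-induced genes with at least 50 CPM there were past 2-fold: H2-D1, an MHC class I chain (29.8 to 117 CPM, ratio 3.92, 2.86 to 5.53), H2-K1, another (16.8 to 65.8 CPM, 3.92, 2.57 to 6.27), and B2m, the light chain of MHC class I (34.4 to 111 CPM, 3.22, 2.39 to 4.42). Over all genes of that comparison the share was 2.97%. All 3, and Masp1, met the 50 CPM minimum only through the ischemic cells. The class I genes are near-identical copies, so their split is uncertain. In OPCs 3 of 6 interferon-induced genes were past 2-fold (Ifit3, B2m at 3.95 and H2-K1 at 2.20), beside 3.64% of all genes. Clu, Vtn and Colec12 were past 2-fold lower, Vtn from 1039 to 127 CPM and Colec12 from 59.8 to 10.9 CPM. In naïve NG2 pericytes (clusters 0, 1 and 2) Vtn and Colec12 stood at 19134 and 1027 CPM. Those pericytes were 3243 of 4306 naïve and 1085 of 3586 ischemic cells. The part of pericyte RNA in the glial Vtn and Colec12 counts was not tested, so no change in glia is read from them. Of the 15 interferon-induced genes, the 3 with at least 50 CPM in cluster 4 had a median log2 ratio of 1.91. The 6 in cluster 6 had a median of 1.04, and of these Ifit3 and H2-K1 met the minimum only through the ischemic cells. Medians over all genes of the comparisons lay between -0.11 and 0.07. The other listed genes were below 50 CPM, so these medians do not describe the whole list.

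In the Tbx18 pericytes, where Serping1 was higher after physical injury, Colec12 was at 0.492, and 5 of 8 interferon-induced genes were past 2-fold, among them Irf1 at 6.46, Isg15 at 5.95, Ifitm3 at 2.29 and Bst2 at 2.25, beside 6.42% of all genes. The 8 genes, those with at least 50 CPM, had a median of 1.17 on the log2 scale. Of the genes named, Irf1, Isg15 and Bst2 met that minimum only through the physical cells. Interferon-induced genes were also higher in Tbx18 smooth muscle, where Serping1 was lower after physical injury than in naïve cells. There 3 of 7 were past 2-fold (Irf1 at 3.36, Isg15 at 2.60 and Bst2 at 2.40), beside 1.63% of all genes, with a median log2 ratio of 0.495. Isg15 and Bst2 met the minimum there only through the physical cells. In NG2 pericytes after ischemic injury 1 of 6 interferon-induced genes was past 2-fold, Isg15 at 4.55 (3.81 to 5.45), beside 0.393% of all genes, and no gene of the complement lists. Isg15 met the minimum there only through the ischemic cells. No gene of these lists was past 2-fold in NG2 smooth muscle, and among the receptors none was in the myeloid clusters of either line: in NG2 cluster 9 the ischemic to physical ratio was 1.55 for Fcer1g, 1.30 for Tyrobp, 1.14 for Trem2 and 0.823 for Itgam.

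Over the 47 groups of 1 cluster and 1 library with at least 20 cells, the genes whose log2(CPM + 1) was most like each member were described by Pearson's r, with no p since groups share libraries and depth. For C1qa they were Fcgr3 (0.968), Ccl12 (0.965) and Ly86 (0.963). For C3ar1 they were Arl11 (0.984), Tlr1 (0.983) and Lilrb4a (0.982), and for C5ar1 Il10ra (0.987), Cybb (0.987) and Gpr65 (0.985). For C3, at few counts, they were Sh2d1b1 (0.936), Phf11a (0.932) and Gm6377 (0.932). C4b had no gene as close, with Cela1 (0.835), Ttc39c (0.796) and Pvt1 (0.793), and Serping1 had Npy1r (0.935), Pcolce (0.928) and Col1a2 (0.915). The C1q chains had r of 0.939 to 0.962 among themselves, and Serping1 had negative r with every other member, from -0.55 to -0.22.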

How the data were processed

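The authors deposited raw UMI counts per gene and cell, with a table of cells giving library, cluster and mitochondrial percent. Reads from 10x Genomics 3′ libraries were aligned and counted by the authors with Cell Ranger (7.0.0 in the submitters' processing notes, a range of versions up to it in the methods; GRCm38/mm10). The authors kept cells with at least 200 genes, within 2 SD of genes and counts and at most 12% mitochondrial counts, removed Gm42418 and AY036118, integrated the libraries in 3 combinations with Seurat and clustered. No doublet removal is stated and none was done here. C3 was not analysed in the naïve table.

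Sums of counts over the cells of a deposited cluster in 1 library were scaled to CPM. Exact intervals were Poisson for levels, Clopper-Pearson for shares and binomial on the split of counts for ratios (Python 3.11.15, scipy 1.17.1). Depths are in the results. Ratios needed 20 cells in both libraries. The 2-fold rule was log2((CPM + 1)/(CPM + 1)) of at least 1 with 50 CPM in the higher group. Ratios and shares were tested on simulated data. Groups came from the labels, with 1 library each, so there was no test. The members and lists were chosen with earlier results of these data known. The genes named are the members, up to 4 genes per list with at least 50 CPM and the 3 most like each member, plus genes past 2-fold, which were chosen after their values were seen. Alternatives were TMM scaling (edgeR 4.0.16, R 4.3.3), cells weighted equally, the study's cell limits applied again within each library (counts and mitochondrial percent as deposited), cells with myeloid UMIs left out of other clusters, thinning to 1000 UMIs, a pseudocount of 5 CPM and a minimum of 20 CPM. The 2-fold comparisons of clusters 4 and 6 of the NG2 line were added after seeing the data. Some items are not reported here.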

Additional observations from a re-analysis of the deposited data

Results flagged for a closer look

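In the clusters named microglia by the study, the 3 C1q chains stood on opposite sides of 1 in the 2 lines when ischemic was set over physical injury, with counting intervals that did not reach 1. C1qa was at 1.17 in the NG2 line (5138 to 6017 CPM) and 0.734 in the Tbx18 line (2017 to 1479 CPM), C1qb at 1.13 and 0.796, and C1qc at 1.22 and 0.771. Serping1 in endothelial cells was at 3.75 in the NG2 line (4.34 to 16.2 CPM; 2.17 to 6.88) and 0.328 in the Tbx18 line (1.30 to 0.426 CPM; 0.105 to 0.881), at levels near the floor. These are 4 of 80 pairs of ratios compared. With 1 library per condition the difference between the lines was not tested, and the 2 clusters named microglia held different cells by their markers.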

How the results depend on the processing

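No paired analysis was possible because each condition had 1 library, and for the same reason no replicate could be left out. TMM scaling multiplied the totals of physical and ischemic cells of NG2 cluster 9 by 0.919 and 0.691. It turned the ischemic to physical ratios there to 1.02 for C3ar1 and 1.05 for C5ar1 and moved that of C1qa to 1.56 (Tbx18 cluster 3, 0.697). Levels after ischemic injury became 8703 CPM for C1qa, 562 for C3ar1 and 371 for C5ar1 in cluster 9, 377 for Serping1 in NG2 smooth muscle, 179.6 for C4b in NG2 cluster 4 and 21.97 for C3 in Tbx18 cluster 3. With the study's cell limits applied again, cluster 9 had 6283 CPM C1qa and 414 CPM C3ar1 and a C1qa ratio of 1.31. With cells weighted equally C4b in cluster 4 was 153 CPM, C1qa 5646, C5ar1 231 and the C1qa ratio 1.26. Thinning took the share of cells with a UMI to 27.8% for Serping1 in NG2 smooth muscle, 13.5% for C4b in cluster 4, 36.4% for C3ar1, 20.8% for C5ar1 and 0.760% for C3 (Tbx18 cluster 3).

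Leaving out cells with myeloid UMIs, an alternative that removes such cells by construction, took C4b in cluster 4 to 124 CPM, and in Tbx18 cluster 4 turned C1qa to 0.427 (physical over naïve), 0.138 (ischemic over naïve) and 0.322 (ischemic over physical), C1qb to 0.366 (physical over naïve) and C1qc to 0.752 (ischemic over physical). The ischemic to naïve ratio of C4b in NG2 cluster 4 was 21.7 to 30.3 where it had a value. It had none with the study's limits, which kept 19 of 103 naïve cells in cluster 4 and 72 of 100 in cluster 6, with 0 C4b counts, and none in cluster 6 without myeloid UMIs. C4b in NG2 cluster 7 gave a ratio of 0.444 with the study's limits and 0.570 with cells weighted equally, C4b in NG2 cluster 6 gave an ischemic to physical ratio of 3.99 with the study's limits, Serping1 in Tbx18 cluster 4 gave 0.877 under TMM, and Serping1 in ischemic NG2 endothelial cells was 8.74 CPM with cells weighted equally. The cause of these moves was not tested. The 5 CPM pseudocount and 20 CPM minimum changed no count of members past 2-fold.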
